A study of Mus musculus with 12 samples.

Results

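Kruppel-like factors (Klf genes) were followed in germ and somatic cells of the mouse fetal ovary, with and without dexamethasone (dex). The 10 genes described here, Klf2, Klf3, Klf4, Klf6, Klf7, Klf9, Klf10, Klf11, Klf13 and Klf15, were picked by name from the 54532 genes of the count table, which held 17 Klf genes. They were chosen with comparisons of dex with saline in these same libraries already known, and the values behind the choice were not recorded. The dex comparisons of these genes are therefore given as descriptions with no p-value, whereas the comparison of germ with somatic cells after saline was tested. That comparison shares its saline libraries with the dex comparisons, so its p-values are not independent of the choice.

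Kruppel-like factors are transcription factors that bind GC boxes and CACCC elements through zinc fingers at their C-terminus, and they are related to the Sp factors. Members such as Klf2, Klf4, Klf6 and Klf7 mainly activate transcription, Klf3 recruits the corepressor CtBP, and Klf9, Klf10, Klf11 and Klf13 recruit the corepressor Sin3a. Klf9 and Klf15 are known in several tissues as direct targets of the glucocorticoid receptor, the nuclear receptor that dex activates.

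Female embryos carried the Tg(Pou5f1-EGFP)2Mnn transgene in all 4 groups, in which Pou5f1 (OCT4) sequence drives green fluorescent protein (GFP) in germ cells. Pregnant dams were injected intraperitoneally once a day from E12.5 to E15.5, with saline or with 10 µg of dex for each g of body weight, and ovaries were taken on the last of these days. Dissociated ovaries, pooled across litters, were sorted into GFP+ germ cells and GFP- somatic cells (soma), with 3 libraries labelled as biological replicates for each cell type and treatment. Dosing the dam exposed the embryo and the mother alike, and the GFP- fraction is a mixture of every ovarian cell without the reporter, so fewer cells of a type and less RNA per cell cannot be told apart in these bulk libraries.

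The libraries held between 14658503 and 18245507 counts, and 3 counts corresponded to 0.169 to 0.201 CPM (counts scaled to library size). The germ marker Ddx4 averaged 603 CPM in germ cells and 1.11 CPM in soma after saline, and the stromal collagen Col1a1 averaged 42.6 and 7399 CPM, as the sort labels state. Across 27 markers of pregranulosa, stromal, endothelial and perivascular cells, germ cell libraries had medians of 1.16% to 2.66% of the mean somatic level of the same treatment. That share was higher for the 8 pregranulosa markers alone, with medians of 3.22% to 13.47% by library. For macrophage markers, which are outside the 27, medians were 3.49% to 7.17% after saline (6 genes) and 7.72% to 17.4% after dex (5 genes). In soma, markers of macrophages fell under dex for 5 of 6 genes, and their summed level was 164 to 223 CPM after saline and 41.7 to 109 CPM after dex.

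In somatic cells 3 of the 10 genes, Klf9, Klf15 and Klf13, were higher after dex and none was lower, where edgeR's quasi-likelihood F test called a gene at a Benjamini-Hochberg (BH) adjusted p no greater than 0.05. Among all genes tested in soma, 4.81% were called higher and 3.36% lower. In germ cells none of the 10 was called, where 0.089% of all genes were called higher and 0.119% lower. There 2 of the 10 (Klf3 and Klf13) had an unadjusted p under 0.05 in edgeR, as had 1963 of all 16857 genes tested. DESeq2 called 1 of the 10 (Klf13) and 158 of all 18367 genes it tested. For the difference between the dex effects of the cell types, the same 3 genes were called lower in germ cells than in soma and none was higher, against 1.13% and 0.49% of all genes. Because the list was drawn up with dex results known, nothing is read from these counts about the family.

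**Figure D1:**
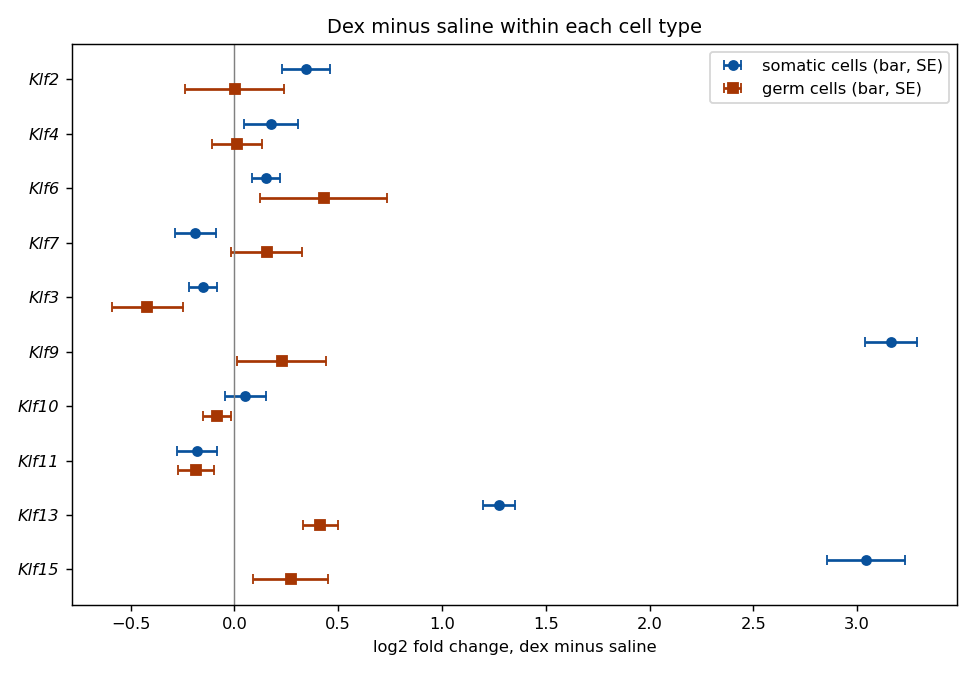
The log2 fold change of dex over saline (x axis) is plotted for each gene in somatic cells (blue circles) and germ cells (brown squares), with bars showing 1 SE. The somatic values of Klf9 (3.16), Klf15 (3.04) and Klf13 (1.27) stand far to the right of their germ cell values, and the other genes lie between -0.42 and 0.43 in both cell types.

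Klf9 (ENSMUSG00000033863, chr19:23141226-23166911, plus strand, GRCm38), a repressor first described as a protein that binds the basic transcription element, showed the largest somatic fold change of the 10. Its somatic levels were 9.37, 7.54 and 9.47 CPM after saline and 86.1, 84.8 and 66.4 CPM after dex. Every dex library was thus far above every saline library, and the ratio of the means was 8.99. The fitted log2 fold change was 3.16 (SE 0.13). Mir1192, a microRNA gene within the span of Klf9, had 0, 0 and 1 counts in soma after saline and 5, 10 and 4 counts after dex.

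In germ cells Klf9 was measured at 3.17, 4.37 and 4.51 CPM after saline and at 4.48, 4.98 and 4.61 CPM after dex. The groups overlapped, and the log2 fold change of 0.23 (SE 0.22) was not called. The germ cell mean moved by 0.671 CPM, which was 0.955% of the somatic change of 70.3 CPM. The dex effect was 2.95 log2 units smaller in germ cells than in soma (log2 difference -2.95, SE 0.23). As a result, the germ cell libraries stood at 36.0% to 51.3% of the somatic mean after saline and at 5.67% to 6.29% after dex.

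Klf13 (ENSMUSG00000052040, chr7:63886351-63938915, minus strand) is a close relative of Klf9 known for regulating the chemokine gene Ccl5 in T cells. It started from a higher level than Klf9 and changed by a smaller fold. Its somatic change was 77.7 CPM, a unit that does not scale for gene length. In FPKM, which does, the somatic mean went from 7.01 to 17.0 for Klf13 and from 2.62 to 23.5 for Klf9. Somatic levels were 56.0, 49.8 and 57.5 CPM after saline against 144, 120 and 133 CPM after dex. The groups did not overlap, the ratio of the means was 2.43, and the log2 fold change was 1.27 (SE 0.08).

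Klf13 was also the gene with the clearest separation of germ cell libraries, at 42.7, 38.1 and 39.3 CPM after saline and 51.1, 56.7 and 51.1 CPM after dex. All 3 dex libraries exceeded all 3 saline libraries, with a log2 fold change of 0.41 (SE 0.08) that was not called in edgeR. It was called when DESeq2 was used and when no filter on low counts was applied. The germ cell effect was smaller than the somatic one by 0.87 log2 units (log2 difference -0.87, SE 0.12), and the germ cell change in CPM was 16.7% of the somatic change. Germ cell dex replicate 2, the highest for Klf13, also had the highest share of the 27 somatic markers (2.66%). Among saline libraries, replicate 1 was the highest for Klf13 and had the lowest share (1.16%). The part of somatic RNA in the germ cell change of Klf13 was not tested.

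The span of Klf13 also holds 2 genes on the opposite strand that share no exon bases with it in the GENCODE M21 annotation. Gm27252 (chr7:63896533-63899698, plus strand), a processed transcript, had 1, 1 and 6 counts in the somatic saline libraries and 26, 20 and 41 counts after dex. In germ cells it had 0, 0 and 6 counts after saline and 208, 174 and 105 counts after dex. It was called higher in both cell types (edgeR BH-adjusted p of 0.00621 in soma and 0.00133 in germ cells), and its dex effects were not called different (germ minus soma 3.06 on the log2 scale, SE 1.27, with an edgeR adjusted p of 0.26). Whether counting used strand was not given in the sources used here, so reads of Klf13 introns and of Gm27252 cannot be told apart, and the share of either was not tested. The other gene, E030018B13Rik, had at most 13 counts in any library.

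Klf15 (ENSMUSG00000030087, chr6:90462576-90475238, plus strand), a regulator of amino acid catabolism and gluconeogenesis in liver and muscle, was the least abundant of the 10 in soma after saline. Its somatic levels were 1.82, 1.42 and 1.76 CPM after saline, which rested on 29, 22 and 29 counts, and 13.8, 14.2 and 13.498 CPM after dex. The 3 dex libraries lay close together and well above the saline libraries, with a ratio of the means of 8.29 and a log2 fold change of 3.04 (SE 0.19). Germ cells gave 9.24, 7.11 and 9.77 CPM after saline and 10.1, 12.02 and 9.21 CPM after dex. These overlapped, and the log2 fold change of 0.27 (SE 0.18) was not called.

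In measured levels, the order of the cell types for Klf15 therefore turned over between treatments. Germ cells were not tested against soma after dex. Germ cells held 522% of the somatic level after saline and 75.6% after dex, where the lowest somatic library (13.498 CPM) was above the highest germ cell library (12.02 CPM). The dex effects differed by 2.78 log2 units (germ minus soma -2.78, SE 0.27). Germ cell RNA in the somatic libraries was low in both treatments, with Ddx4 at 0.184% of its germ cell mean after saline and 0.306% after dex. The summed level of 7 germ cell markers in soma was 2.89 to 6.06 CPM after saline and 15.3 to 20.6 CPM after dex, and 2459 to 2981 CPM in germ cells. Of the 7, 4 had enough counts to be tested in soma. Dazl alone was called higher, from a mean of 1.17 to 12.8 CPM. The log2 fold changes of Ddx4 (0.65, SE 0.51), Mael (0.82, SE 0.64) and Sycp3 (0.84, SE 0.44) were also above 0 but not called. Pou5f1 had 0 counts in all 3 somatic dex libraries.

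The promoters of Klf9, Klf13 and Klf15 are shown because all 3 genes were called higher in soma after dex. They also carry different numbers of the sites that Kruppel-like factors bind. Each line gives the 250 bases before the RefSeq start site (GRCm38.p6), with GC boxes (GGGCGG) and CACCC elements (CCACCC) on either strand in capitals. The Klf9 sequence lies at chr19:23140976-23141225 on the plus strand, that of Klf13 at chr7:63938916-63939165 on the minus strand, and that of Klf15 at chr6:90462326-90462575 on the plus strand.
Klf9: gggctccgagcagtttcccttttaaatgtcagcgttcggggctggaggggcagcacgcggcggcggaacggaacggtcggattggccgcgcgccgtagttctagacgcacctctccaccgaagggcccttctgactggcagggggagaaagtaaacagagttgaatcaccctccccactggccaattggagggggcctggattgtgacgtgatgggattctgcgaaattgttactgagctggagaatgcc
Klf13: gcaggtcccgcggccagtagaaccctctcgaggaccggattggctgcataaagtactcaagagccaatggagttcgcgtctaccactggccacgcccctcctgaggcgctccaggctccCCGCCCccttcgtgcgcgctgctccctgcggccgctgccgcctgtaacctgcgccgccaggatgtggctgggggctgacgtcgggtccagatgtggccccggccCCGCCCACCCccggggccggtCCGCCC
Klf15: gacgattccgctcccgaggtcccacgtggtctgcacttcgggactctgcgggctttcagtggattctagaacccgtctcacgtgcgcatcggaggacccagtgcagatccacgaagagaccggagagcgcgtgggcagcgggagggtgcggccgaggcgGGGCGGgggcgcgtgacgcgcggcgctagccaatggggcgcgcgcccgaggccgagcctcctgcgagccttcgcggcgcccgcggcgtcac

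Over 300 bases, including the first 50 of the transcript, Klf9 held no GC box and no CACCC element. Klf13 held 3 GC boxes and 1 CACCC element, the CACCC element sharing bases with 1 of the GC boxes. Klf15 held 1 GC box and no CACCC element. Of 32544 RefSeq promoters of this length, 35.9% held a GC box and 31.6% a CACCC element. The half-site of the glucocorticoid receptor, AGAACA, was found in 18.9% of all promoters and its palindromic element, GNACANNNTGTNC, in 0.476%, and neither occurred in the 9 promoters matched to the 10 genes (Klf10 was not matched). The 3 sequences were GC-rich at 63.3% for Klf9, 72.0% for Klf13 and 73.3% for Klf15, against a median of 53% over all promoters. A match or its absence in this window is a description of letters only.

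**Figure D2:**
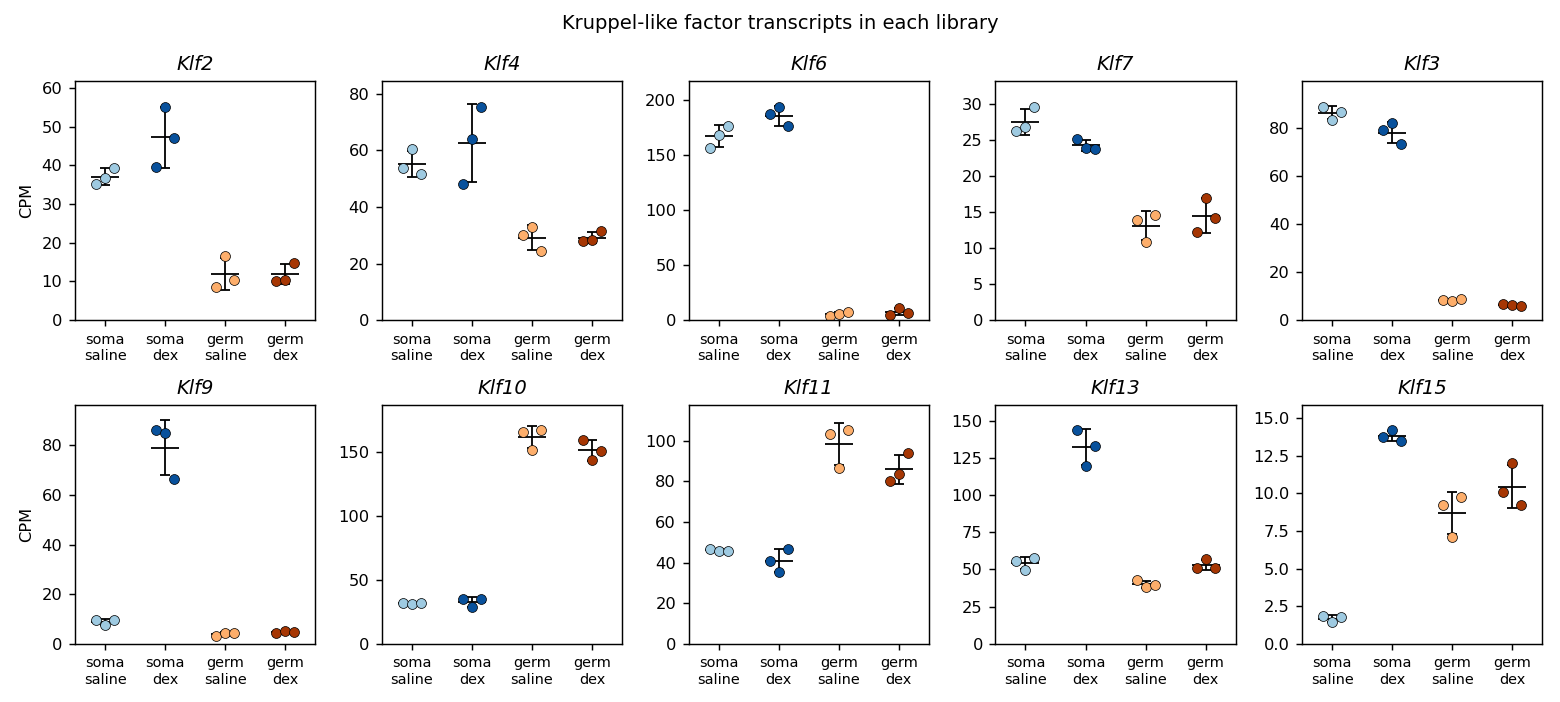
Each panel shows 1 gene in CPM (y axis, from 0) for the 3 libraries of each group (points), with the group mean and SD (black bars). Klf9, Klf13 and Klf15 separate dex from saline in soma, Klf10 and Klf11 are higher in germ cells in both treatments, and Klf3 and Klf6 are close to 0 in germ cells.

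Klf10 (ENSMUSG00000037465, chr15:38291463-38300706, minus strand) and Klf11 (ENSMUSG00000020653, chr12:24651274-24662789, plus strand), the early response genes of TGF-beta signalling that complete the Sin3a-binding group, were both higher in germ cells than in soma. After saline, Klf10 was measured at 166, 152 and 167 CPM in germ cells and at 31.6, 31.0 and 32.3 CPM in soma. No germ cell library came near the somatic range, and germ cells exceeded soma by 2.37 on the log2 scale (SE 0.07, adjusted p = 3.09e-13 in edgeR).

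Klf11 stood at 104, 86.3 and 105 CPM in germ cells and at 46.8, 45.7 and 45.6 CPM in soma after saline (log2 difference 1.11, SE 0.09, edgeR BH-adjusted p = 1.05e-08). With dex, neither gene was called in either cell type. Klf10 changed by 0.05 log2 units (SE 0.10) in soma and by -0.08 (SE 0.07) in germ cells. Klf11 changed by -0.18 (SE 0.10) in soma, with dex libraries at 40.5, 35.3 and 46.6 CPM, and by -0.19 (SE 0.09) in germ cells, with dex libraries at 80.1, 83.6 and 93.7 CPM. Both cell types thus gave means about equally far below saline for Klf11, with overlapping libraries in each, and the difference of -0.02 (SE 0.14) was not called.

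The 4 activators were all higher in soma than in germ cells after saline. Klf6 (ENSMUSG00000000078, chr13:5861482-5870394, plus strand), a widely expressed factor that is induced early by serum and injury, had the strongest bias. It gave 156, 168 and 176 CPM in soma and 3.88, 5.48 and 7.20 CPM in germ cells (log2 difference -4.89, SE 0.14, edgeR BH-adjusted p = 1.35e-13). The germ cell values were 2.32%, 3.28% and 4.32% of the somatic mean after saline and 2.45%, 5.84% and 3.67% after dex, in replicate order. In the same libraries the 27 somatic markers stood at 1.16%, 2.23% and 2.45% after saline and at 1.55%, 2.66% and 2.05% after dex. Libraries ranked the same way by Klf6 and by somatic markers within each treatment, as they did by Klf9, and the part that somatic RNA had in the germ cell level of Klf6 was not tested.

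**Figure D3:**
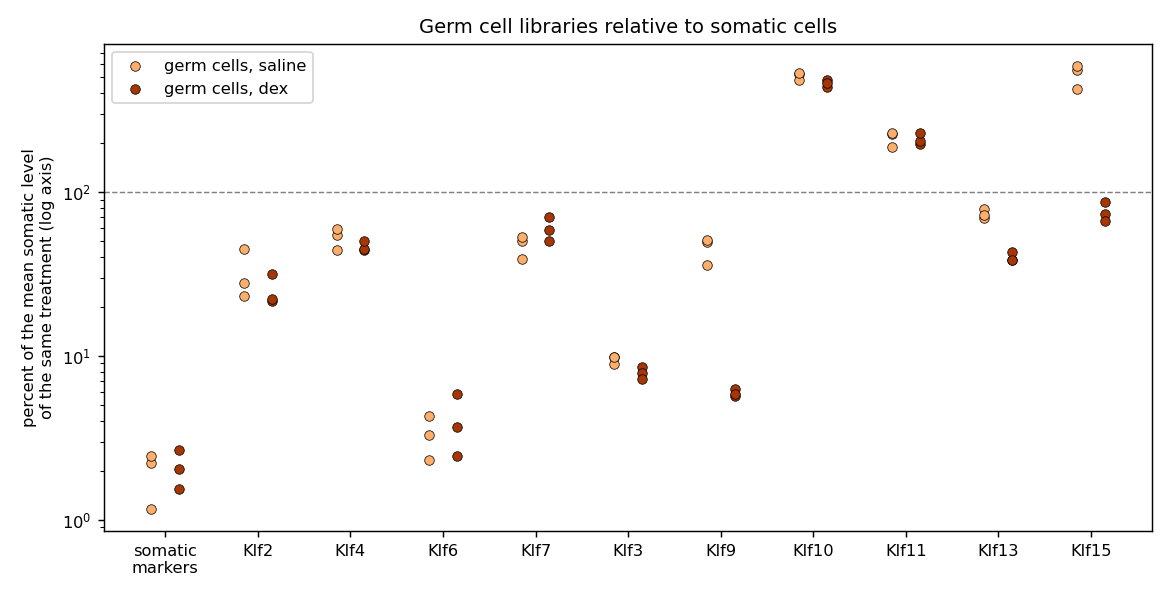
Germ cell libraries are shown as a percentage of the mean somatic CPM of the same treatment (log y axis), for the median of 27 somatic markers and for each gene, after saline (light) and dex (dark), with the dashed line at 100%. Klf6 lies nearest the markers, Klf9 falls from 36.0% or more to at most 6.29%, and Klf15 crosses from above to below the dashed line.

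Klf2 (ENSMUSG00000055148, chr8:72319033-72321656, plus strand), which keeps endothelium and T cells quiescent, was at 35.1, 36.8 and 39.4 CPM in soma and at 8.66, 16.7 and 10.3 CPM in germ cells after saline. The cell types did not overlap (log2 difference -1.62, SE 0.18, edgeR BH-adjusted p = 8.18e-07). Klf4 (ENSMUSG00000003032, chr4:55527143-55532466, minus strand), a reprogramming factor of induced pluripotent cells, was at 53.7, 60.4 and 51.6 CPM in soma and at 30.2, 32.8 and 24.3 CPM in germ cells (log2 difference -0.91, SE 0.11, edgeR BH-adjusted p = 1.85e-06). Klf7 (ENSMUSG00000025959, chr1:64029447-64122282, minus strand), which is needed for outgrowth of neurons, was at 26.2, 26.8 and 29.6 CPM in soma and at 13.8, 10.8 and 14.6 CPM in germ cells (log2 difference -1.06, SE 0.13, edgeR BH-adjusted p = 3.07e-06).

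None of the 4 activators was called after dex. Klf2 in soma came nearest, with dex libraries at 39.5, 55.1 and 46.9 CPM that all lay above saline, the lowest by a narrow margin (log2 fold change 0.35, SE 0.11). It was called in 3 of 11 alternative fits, among them the one without somatic dex replicate 1 (0.46), whereas without somatic dex replicate 2 it was not called and the value was 0.20. Klf6 in soma was at 187, 194 and 176 CPM after dex, separated from saline by less than the rounding of its lowest value, and the groups overlapped in the deposited FPKM. Klf4 spread from 48.1 to 75.5 CPM across the somatic dex libraries around an unclear change of 0.18 (SE 0.13), and Klf7 gave -0.19 (SE 0.10) with all dex libraries below saline, at 25.1, 23.9 and 23.7 CPM. Klf7 shares 3196 exon bases with Gm26649 on the opposite strand, which are all the exon bases of Gm26649. That gene had 0 counts in every library. Whether counting used strand was not given, so how reads in these bases were assigned is not known. Klf7 also spans Gm13748 and Mir6899, with at most 10 and 2 counts.

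In germ cells the activators gave log2 fold changes of 0.00 (SE 0.24) for Klf2, 0.01 (SE 0.12) for Klf4, 0.43 (SE 0.31) for Klf6 and 0.15 (SE 0.17) for Klf7, with overlapping libraries for each. The Klf6 value leaned on germ cell dex replicate 2 at 10.9 CPM, which was also the library with the highest share of somatic markers. Without it the Klf6 log2 fold change was 0.05, and it reached 0.67 without germ cell dex replicate 1 or germ cell saline replicate 3.

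Klf2, Klf4 and Klf6 are known to be induced early by stress, and Klf2 and Klf4 are abundant in endothelium, so both marker lists were set beside them. Of 7 immediate-early genes, 2 rose in soma (Fos and Egr1), and the summed level was 4603 to 5056 CPM after saline and 5384 to 6186 CPM after dex. Of 7 endothelial genes, 3 fell (Cdh5, Tie1 and Egfl7) and 1 rose (Emcn), and the summed level was 324 to 380 CPM after saline and 294 to 322 CPM after dex. The part of either in the somatic levels of these factors was not tested.

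Klf3 (ENSMUSG00000029178, chr5:64803388-64832901, plus strand), the CtBP-binding repressor of the list, was another strongly somatic gene. After saline it was at 89.0, 83.6 and 86.9 CPM in soma and at 8.53, 7.75 and 8.57 CPM in germ cells (log2 difference -3.37, SE 0.09, edgeR BH-adjusted p = 7.41e-14). With dex it was the only one of the 10 whose libraries lay wholly below saline in both cell types, although it was called in neither. Somatic dex libraries were at 79.1, 82.1 and 73.3 CPM (log2 fold change -0.15, SE 0.07), and germ cell dex libraries at 6.69, 6.14 and 5.65 CPM (log2 fold change -0.42, SE 0.17). The annotated exons of Klf3 share 404 bases with those of Gm20033 on the opposite strand, which had 5 to 58 counts per library against 95 to 1458 for Klf3. A further gene in its span, C230096K16Rik on the same strand, shares no exon bases and had 4 to 53 counts. The germ cell libraries held Klf3 at 9.86%, 8.96% and 9.91% of the somatic mean after saline and at 8.56%, 7.85% and 7.23% after dex, all above the 1.16% to 2.66% of the 27 somatic markers. The pregranulosa markers alone stood at 4.43%, 6.41% and 9.37% after saline and at 3.22%, 13.47% and 11.4% after dex, and did not rank the dex libraries as Klf3 did. The part of somatic RNA in the germ cell level of Klf3 was not tested.

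Counting libraries in this way, the CPM of dex and saline did not overlap for 7 of the 10 genes in soma (Klf2, Klf6, Klf9, Klf13 and Klf15 higher, Klf3 and Klf7 lower), where 25.4% of all genes tested did not overlap. In germ cells 2 of the 10 did not overlap (Klf13 higher and Klf3 lower), against 17.4% of all genes. The median log2 fold change of the 10 was 0.16 in soma and 0.08 in germ cells, beside 0.00 and 0.01 over all genes.

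The 10 genes divided by cell type after saline. Klf10, Klf11 and Klf15 were higher in germ cells, and the other 7 were higher in soma, so that all 10 were called. Most genes were called in this comparison, 43.1% higher and 42.9% lower in germ cells, so the count itself lies close to the background. Klf15 differed by 2.39 (SE 0.24, edgeR BH-adjusted p = 2.27e-07), close in size to that of Klf10. Klf9 and Klf13 were lower in germ cells by smaller margins, at -1.11 (SE 0.21, edgeR BH-adjusted p = 0.000163) and -0.43 (SE 0.09, edgeR BH-adjusted p = 0.00026). The sign of each difference held in every alternative fit.

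Levels between genes were compared in FPKM, which scales fragments by the annotated length of the gene. That length ran from 1847 bases for Klf2 to 11243 for Klf3 and need not be that of the transcripts present. In soma after saline Klf6 led at 36.9 ± 2.18 FPKM (SD, n = 3), followed by Klf2 at 19.5 ± 1.13 and Klf4 at 17.6 ± 1.42, whose libraries overlapped. Klf11 came next at 10.3 ± 0.168, above Klf3, Klf10 and Klf13, which overlapped one another in order between 7.47 and 7.01 FPKM. Klf7 at 3.29 ± 0.218, Klf9 at 2.62 ± 0.328 and Klf15 at 0.58 ± 0.0771 closed the order, each below the one before it.

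After dex Klf9 moved from rank 9 to rank 3 in soma at 23.5 ± 3.44 FPKM, overlapping with Klf2 at 24.7 ± 4.18 and Klf4 at 19.8 ± 4.24. Klf13 followed at 17.0 ± 1.52 FPKM, overlapping with Klf4. Klf11, Klf10 and Klf3 came next, each overlapping with its neighbour between 9.08 and 6.73 FPKM, and Klf15 at 4.79 ± 0.159 passed Klf7 at 2.88 ± 0.0988. Summed over the 10 genes, the somatic level was 112 ± 3.06 FPKM after saline and 157 ± 5.02 FPKM after dex.

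Germ cells ordered the same genes differently. Klf10 led at 39.1 ± 2.32 FPKM after saline, followed without overlap by Klf11 at 22.9 ± 2.56 and Klf4 at 9.63 ± 1.37. Klf2 at 6.50 ± 2.27 overlapped with Klf4 and with Klf13 at 5.37 ± 0.325. Klf15 at 3.15 ± 0.53 and Klf7 at 1.62 ± 0.26 followed, then Klf6 at 1.27 ± 0.391 and Klf9 at 1.24 ± 0.233, which overlapped with Klf7 and with each other, and Klf3 at 0.745 ± 0.0461. After dex the order was the same except that Klf13, at 7.03 ± 0.492 FPKM, stood above Klf2 at 6.42 ± 1.51, with overlapping libraries. The sum over the 10 genes was 91.5 ± 2.74 FPKM after saline and 88.3 ± 4.13 FPKM after dex.

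**Figure D4:**
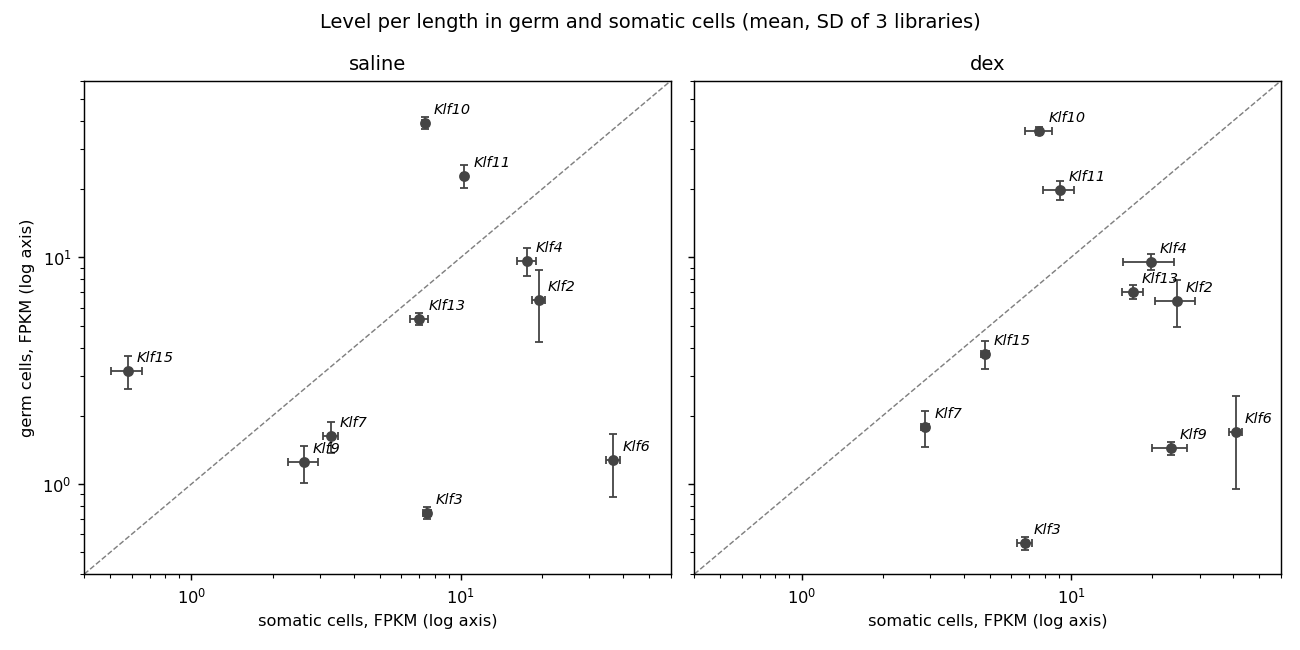
Mean FPKM in soma (x axis) is plotted against mean FPKM in germ cells (y axis), both on log axes, after saline (left) and dex (right), with bars for the SD of 3 libraries and a dashed line of equal level. Klf9 and Klf13 move to the right after dex at nearly the same height, and Klf15 moves across the line, from 0.58 to 4.79 FPKM in soma.

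Among the Klf genes outside the list, 6 of 7 had enough counts to be tested, and 1 was called after dex. Klf5, an activator of epithelial and smooth muscle growth, was at 17.7, 20.7 and 19.4 CPM in soma after saline and at 34.9, 32.0 and 34.8 CPM after dex (a rise of 0.81 on the log2 scale, SE 0.10, adjusted p = 0.000216 in edgeR). Its germ cell libraries were at 15.8, 14.6 and 18.6 CPM after saline and 15.9, 14.7 and 13.0 CPM after dex. The dex effects on Klf5 differed between cell types (log2 difference -0.99, SE 0.18, edgeR BH-adjusted p = 0.00772). After saline 3 of the 6 were lower in germ cells, Klf12 (-4.14, SE 0.17), Klf14 (-2.15, SE 0.19) and Klf16 (-1.35, SE 0.14), and Klf1, Klf5 and Klf8 were not called.

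The related Sp factors were called in neither dex comparison by edgeR or by DESeq2. That was 0 of 6 tested genes in soma and 0 of 8 in germ cells. At an unadjusted edgeR p under 0.05 stood 1 in soma (Sp1) and 1 in germ cells (Sp4). Over all genes, 3453 of 16556 in soma and 1963 of 16857 in germ cells had such a p. After saline Sp2, Sp4, Sp8 and Sp9 were higher and Sp3, Sp5 and Sp7 lower in germ cells. The 11 corepressors and coactivators through which Klf proteins act (such as Sin3a, Ctbp2 and Ep300) had 0 calls after dex in both cell types by edgeR and by DESeq2. In edgeR 0 in soma and 2 in germ cells (Hdac2 and Sin3a) had an unadjusted p under 0.05, beside the same counts over all genes. Somatic log2 fold changes of the 11 lay between -0.07 and 0.11. Of these, Sin3a, Sin3b, Hdac2 and Ep300 were higher in germ cells after saline, and Hdac3, Ctbp1, Ctbp2 and Kat2b were lower.

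Of 13 regulators of Klf genes or proteins, 2 rose in soma, the muscle and endothelial factor Mef2c (0.38, SE 0.08) and the ligand Tgfb2 (0.28, SE 0.07), and 1 fell, the TGF-beta effector Smad2 (-0.30, SE 0.08). In germ cells edgeR and DESeq2 called 0 of the 13. There 2 (Foxo1 and Smad3) had an unadjusted p under 0.05 in edgeR, as had 1963 of all 16857 genes tested. Of 8 genes known elsewhere as targets of these factors, 1 rose in soma, the anticoagulant receptor gene Thbd (0.98, SE 0.13), and 1 fell, the endothelial nitric oxide synthase gene Nos3 (-0.81, SE 0.23). The amino acid catabolism genes Bcat2 (-0.07, SE 0.08), Prodh (-0.02, SE 0.13) and Gpt (-0.35, SE 0.18), known as targets of Klf15 in other tissues, were not called in soma. After saline the 7 of these targets that could be tested were all lower in germ cells.

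Of 6 established receptor targets outside the family, 5 rose in soma alongside Klf9, Klf13 and Klf15. Fkbp5 (log2 fold change 1.29, SE 0.08), Tsc22d3 (1.08, SE 0.07), Per1 (1.68, SE 0.10), Zbtb16 (6.94, SE 0.25) and Sgk1 (0.41, SE 0.09) were called higher, and Dusp1 was not called. In germ cells edgeR called Per1 (1.91, SE 0.16) and Zbtb16 (2.96, SE 0.46), whereas it did not call Klf9, Klf13 or Klf15. DESeq2 called Klf13 there, and Fkbp5 (0.33, SE 0.08) had an unadjusted p under 0.05 in edgeR without being called. Zbtb16 had too few counts for the saline comparison of cell types. In cultured ovaries the study's authors saw the Zbtb16 protein PLZF rise in soma and not in germ cells. The part of somatic RNA in the germ cell value of Zbtb16 was not tested.

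The genes whose levels ran most like Klf9 over the 12 libraries, among 16147 genes compared by Pearson's r of log2(CPM + 0.5), were Klhl2 (r = 0.993), Fkbp5 (r = 0.986) and Wipf3 (r = 0.983). Each was higher in soma after dex than in any other group, and Wipf3 averaged 7.84 CPM in soma after saline and 31.4 CPM after dex. For Klf6, whose germ cell fold change (0.43) was the largest in absolute size in edgeR but close to that of Klf3 (-0.42), and smaller than it with DESeq2 and in several other alternatives, the most similar genes were Sh3bgrl, Vps37d and Cc2d2a, each with r = 0.999. These 12 points share 2 cell types and 2 treatments, and the Klf6 likeness follows the contrast of soma with germ cells, so that Vps37d averaged 26.2 CPM in soma and 0.688 CPM in germ cells after saline.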

How the data were processed

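RNA was measured in 12 poly-A selected, random-primed libraries. Per the labels, the authors aligned reads to mm10 with HISAT2 2.0.5 and counted fragments with featureCounts 1.5.0-p3; the strand setting and the handling of multiply mapped reads were not given in the sources used here. The authors deposited raw counts per Ensembl gene, which were used for all tests, and FPKM values, which were used for levels between genes. Tables of the authors' own DESeq2 1.20.0 comparisons, holding fold changes, p-values and normalized values, were not used.

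Counts were scaled by TMM factors, genes with low counts were removed with filterByExpr, and each comparison was fitted across all genes with edgeR 4.0.16 (R 4.3.3), using the quasi-likelihood F test and BH adjustment at 0.05. Dex was compared with saline within the libraries of each cell type, germ with somatic cells within the saline libraries, and the difference of dex effects as the interaction over 12 libraries. The SE is that implied by the F statistic. All p-values measure the spread between pooled replicates. The procedure was tested on simulated data. Every pair of libraries within a group differed beyond sampling noise. Gene coordinates are GRCm38 as deposited, and promoters are from RefSeq.

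The 10 genes, the accompanying lists and the tests were chosen with earlier results of these data known. The genes named were all 10 members, other Klf and Sp genes that were called, genes overlapping a member, and the 3 genes most correlated with the member of largest change in each dex comparison. Genes of the other lists were named where they were called, and the further examples were chosen after their values were seen. Alternatives were RLE scaling, DESeq2 1.42.0, no low-count filter, a fit over all 12 libraries, a replicate block, omission of each library, and FPKM for the overlap of levels.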

Additional observations from a re-analysis of the deposited data

Results flagged for a closer look

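The dex effect differed between cell types for 3 of the 10 genes. Klf9 gave a log2 difference of -2.95, germ minus soma, Klf15 gave -2.78 and Klf13 gave -0.87. Each passed the interaction test, in which the somatic libraries rose by more than the germ cell libraries. For Klf9 and Klf15 the germ cell groups overlapped, whereas for Klf13 all germ cell dex libraries were above saline. The genes were chosen with dex comparisons of these libraries known, so the 3 differences are descriptions. The part that the mixture of cells in soma, or somatic RNA in the germ cell libraries, had in them was not tested.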

How the results depend on the processing

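Over 490 alternative fits of single genes, 468 kept their direction and their side of the threshold, 6 passed it only in the alternative, 16 changed sign and 0 lost a call. Klf9, Klf13 and Klf15 were called in every alternative for soma and for the difference of dex effects. In germ cells 1 of the 10 (Klf13, with log2 fold changes of 0.40 and 0.41) was called with DESeq2 and with no low-count filter, against 0 in edgeR, where 1963 genes had an unadjusted p under 0.05. In soma Klf2 was called with no filter (0.34), with the replicate block (0.33) and without somatic dex replicate 1 (0.46), against 0.20 without replicate 2. Klf11 was called without somatic dex replicate 3 (-0.28), against -0.10 without replicate 2.

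Sign changes were as follows. Klf2 in germ cells was -0.00275 with RLE scaling, -0.00698 with DESeq2, -0.00518 with no filter and -0.00528 in the fit over 12 libraries, and it ran from -0.203 to 0.32 when each library was left out. With libraries left out in turn, Klf4 in germ cells ran from -0.107 to 0.102, Klf10 in soma from -0.000931 to 0.134, Klf11 for the difference from -0.101 to 0.0994 and Klf6 for the difference from -0.0944 to 0.515. The cause was not tested.

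Deviations from group means in libraries with the same number correlated at -0.0153 to 0.217 between dex and saline of a cell type (5 of 12 best with their own number). Between germ cells and soma of a treatment they correlated at 0.08 to 0.134, where 12 of 12 were best with their own number and different numbers gave r below 0. Deviations in a group sum to 0, so an r above 0 for the same number pulls the others below 0 on average. The 12 matches are therefore not independent of each other. The match of germ cells with soma is a hint from the data, not from the design, since no label says that a number marks shared ovaries. The replicate block matched dex with saline libraries by number within a cell type. For the difference and for germ against soma, it matched germ with somatic libraries of a treatment. Dex and saline were given to different dams, so the match of dex with saline is by number only. With the replicate block, 4, 0 and 3 of the 10 were called in soma, in germ cells and for the difference, against 3, 0 and 3 without it, and 10 in both for germ against soma. Over all genes 1354 were called in soma, with 754 to 1946 across alternatives, 35 in germ cells (17 to 420) and 314 for the difference (143 to 727). Non-overlapping levels numbered 9 of 20 in CPM and 8 in FPKM. Depth limits Klf15 in soma after saline, at 22 to 29 counts.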
